A study of Mus musculus with 2 samples.

Results

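Genes of the hedgehog pathway were followed probe by probe in the epidermis of mouse pups with and without keratinocyte deletion of the vitamin D receptor gene Vdr. The members were the ligand gene Shh, the receptor genes Ptch1 and Smo, the inhibitor genes Sufu and Hhip, the transcription factor genes Gli1, Gli2 and Gli3, and the cyclin gene Ccnd2. Every probe whose symbol in the deposited array table was one of these 9 symbols was taken. The rule found 11 of 25697 probes, and these named 7 of the 9 symbols. A further probe carried the older symbol Gli and was matched to Gli1 through its transcript accession, so it is described beside the 11. No probe carried the name Gli2, before or after names were updated, so Gli2 was not analysed here.

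Total RNA of back skin epidermis was measured in 2 pools, 1 for each genotype, and each pool joined the RNA of 3 mice at postnatal day 5. The control pool (CON) came from VDR fl/fl littermates, in which both copies of Vdr are flanked by recombination sites. The knockout pool (KO) came from VDR fl/fl mice that also carried Cre recombinase under the keratinocyte promoter K14, and both groups were of strain C57BL6. That promoter acts in keratinocytes, and which cells of the sample lost Vdr was not tested. A single pool for each genotype leaves no replicate spread and allows no test of any difference. The number of arrays limits the precision, and variation between mice is hidden by pooling.

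In the hedgehog pathway a secreted ligand binds Ptch1, which otherwise holds the membrane protein Smo inactive. Freed Smo signals through the primary cilium to release the Gli proteins from Sufu, and Gli proteins then switch on target genes that include Gli1, Ptch1 and Hhip. Ptch1 and Hhip bind the ligand and limit the response. In mouse skin Shh is made by epithelial cells of the growing hair follicle and is required for follicle growth, and excess pathway activity in keratinocytes is a known driver of basal cell carcinoma.

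Of the 11 probes, 5 were detected in both pools, 6 in neither and 0 in 1 pool only. A probe was called detected where its detection p-value, the share of negative control beads at least as bright, was under 0.01. These p-values came in steps of 1/798, so each can be read as a number out of 798 negative control values. The detected probes covered 3 genes, namely Shh, Smo and Ccnd2. Sufu, Gli3, Ptch1 and Hhip had no detected probe, nor did Gli1, so no fold is given for them. None of the 3 detected genes differed by 1.5-fold between the pools, while 5.38% of 8865 detected genes on the array did, 3.1% higher and 2.28% lower in KO. That share covers genes detected in at least 1 pool, whereas these 3 genes were detected in both. Of 8274 genes detected in both pools, 185 were higher and 114 lower by 1.5-fold. The share of 5.38% is also set beside the lists below, although most of their detected genes were detected in both pools. The brightest probes of these 3 genes had a median log2 change of -0.0046 (KO minus CON), beside 0.0017 over all detected genes. Such a median over 3 genes describes these pools only.

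**Figure D1:**
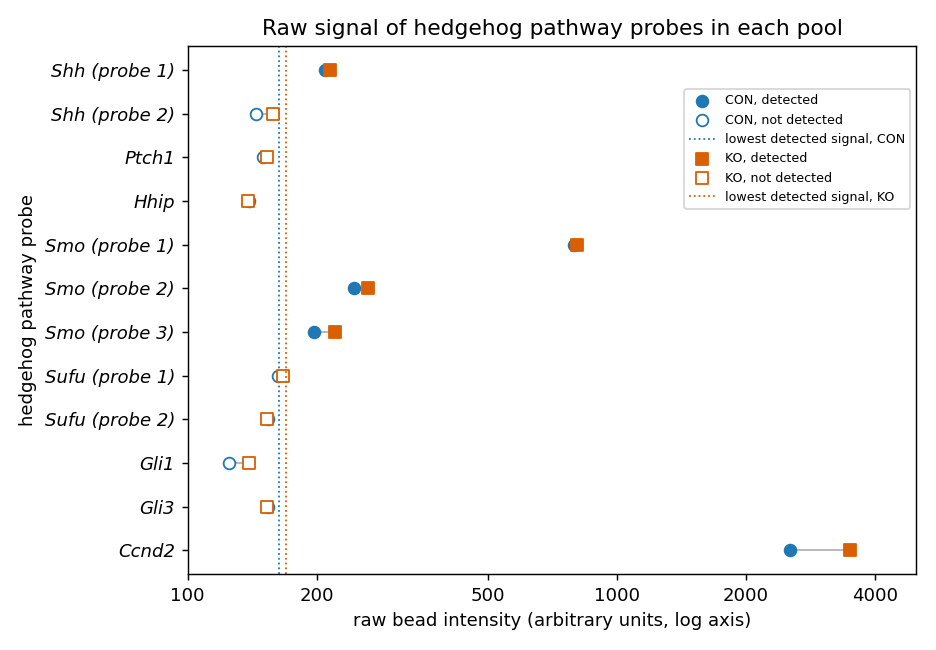
Raw bead intensity (log axis) of the 12 hedgehog pathway probes in the CON pool (circles) and the KO pool (squares), with filled symbols where the probe was detected and dotted lines at the lowest detected signal of each array (163.1 in CON and 169.2 in KO). The probes of Ptch1, Hhip, Sufu, Gli1 and Gli3 lie below these lines in both pools, and Ccnd2 has the widest gap between pools among the detected probes, from 2530.9 to 3500.1.

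Shh, the ligand gene, was present at a low signal and was close to equal in the pools. Its detected probe (ILMN_2610013) gave raw intensities of 209.2 (CON) and 214.3 (KO), with detection p-values of 0 in both. These signals lay 8.58 and 7.81 background SDs above the mean background of the array. After background correction and normalization the log2 change was -0.06, a 1.04-fold difference, and it was 0.03 in raw intensities without normalization. The sign of the Shh difference turned only in raw intensities, where the median over all detected genes was 0.05.

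The second Shh probe (ILMN_2802979) was not detected in either pool. It read 144.0 in CON, where 157 of 798 negative control values were at least as bright, and 158.3 in KO, where 44 were. The Shh result accordingly rests on 1 probe.

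Smo, which encodes the signal transducer of the pathway, was the member with the most probes, and all 3 were detected in both pools. The brightest (ILMN_2986978) read 795.9 in CON and 809.3 in KO, and its log2 change was -0.0046. A probe of lower signal (ILMN_2741614) read 244.2 and 263.1, with a log2 change of 0.09. The dimmest (ILMN_2741611) read 197.0 and 221.0, with a log2 change of 0.27, or 1.21-fold. Raw signals of each probe were slightly higher in KO, as was the raw median over all probes (153.6 in CON and 158.5 in KO).

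The log2 change of the Smo probes was larger the lower their signal. Their mean log2 change was 0.12 ± 0.14 (SD over 3 probes of 1 gene, which share both RNA pools and are not replicates). The span from lowest to highest was 0.28. The 2 brightest Smo probes differed by 0.10, while over 2211 genes with at least 2 detected probes the 2 brightest differed by a median of 0.18, with a 90th percentile of 0.51. Across all detected probes averaging 6 to 7 in log2 signal, where the dimmest Smo probe lies, the log2 changes had an SD of 0.34. The value of 0.27 was within that spread, and in the authors' normalized values it was 0.12.

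**Figure D2:**
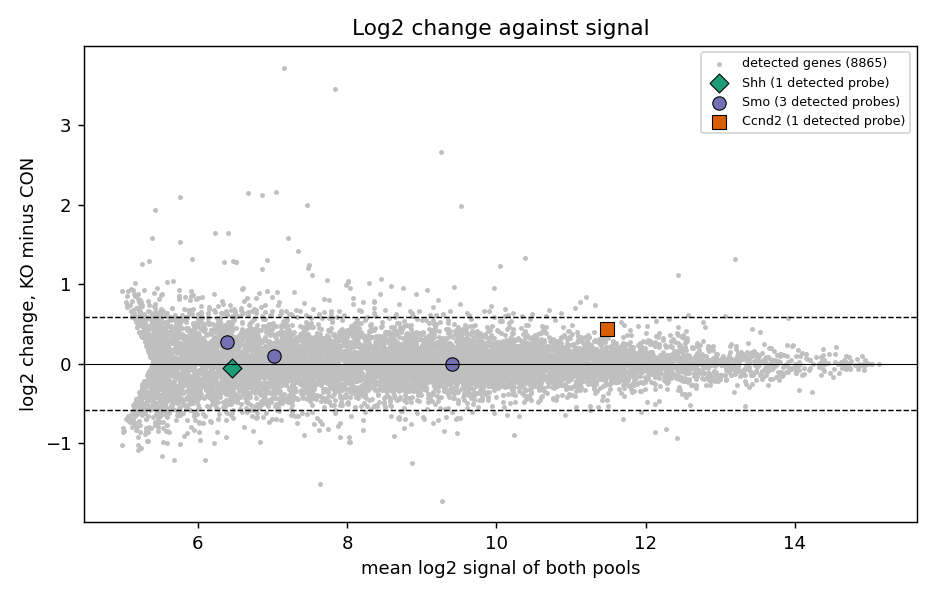
Log2 change (KO minus CON) against the mean log2 signal of both pools for 8865 detected genes (grey) and the detected probes of Shh (diamond), Smo (circles) and Ccnd2 (square), with dashed lines at 1.5-fold. All 5 hedgehog probes lie inside the dashed lines, and Ccnd2, at 0.44, lies near the upper edge of genes with similar signal.

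Ptch1, the receptor that holds Smo inactive and is itself a target of the pathway, was not above background in either pool. Its probe (ILMN_1248463) read 150.0 in CON and 153.1 in KO, with detection p-values of 0.0865 and 0.118. These signals were 1.45 and 1.2 background SDs above the mean background.

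Hhip, which encodes a membrane protein that binds and sequesters hedgehog ligands, read 138.6 in CON and 138.5 in KO. Its detection p-values were 0.409 and 0.612, so its signal was that of an ordinary negative control in both pools. Sufu, the cytoplasmic inhibitor of the Gli proteins, came closest to the detection limit among the undetected genes. The brighter Sufu probe (ILMN_2636718) read 162.6 in CON and 166.5 in KO, with detection p-values of 0.01003 and 0.01504, just outside the limit. The other Sufu probe (ILMN_3127458) read 153.5 and 152.7, with p-values of 0.0539 and 0.122.

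The Gli genes gave no measurable level. The Gli3 probe, for a factor that acts mainly as a repressor when no ligand is present, read 154.0 in CON and 153.4 in KO, with detection p-values of 0.0451 and 0.108. The Gli1 probe, for an activator that is among the most direct targets of the pathway, read 125.0 and 139.2. In CON 782 of 798 negative control values were at least as bright as the Gli1 probe, and in KO 460 were. The related zinc finger genes Glis2, Zic1 and Zic2 were undetected too, which left 0 detected genes of 5 measured in that list.

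A signal within background sets only an upper limit on a transcript at this probe, and it does not show that the gene was off. With a looser detection limit of 0.05, the brighter Sufu probe passed in both pools and the Gli3 probe in CON alone, so that 6 of the 11 probes passed in both pools and 1 in 1 pool. In bulk epidermis fewer cells of a type and less RNA per cell cannot be told apart.

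Ccnd2, which encodes a D-type cyclin that drives entry into the cell cycle and has been described as a target of Gli activity, had the largest difference between pools among the detected members. Its only probe (ILMN_2700166) read 2530.9 in CON and 3500.1 in KO, both with a detection p-value of 0. The log2 change was 0.44, a 1.35-fold difference, which is below the 1.5-fold rule. The authors' normalized signals of this probe were 2418.6 and 3215.8, a 1.33-fold difference. The value moved little with processing and lay between 0.41 and 0.47 in the settings tried.

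A log2 change as high as that of Ccnd2 was less frequent among bright genes than among all detected genes. Of 8865 detected genes 585 (6.6%) had a log2 change at least as high. Among 1447 genes averaging 11 or more in log2 signal, a limit chosen after the values were seen, 22 (1.52%) did and 8 (0.553%) were higher by 1.5-fold. Detected probes of that signal had log2 changes with an SD of 0.18. This spread is across genes and not between replicates, so it gives the scale of the values and no test.

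**Figure D3:**
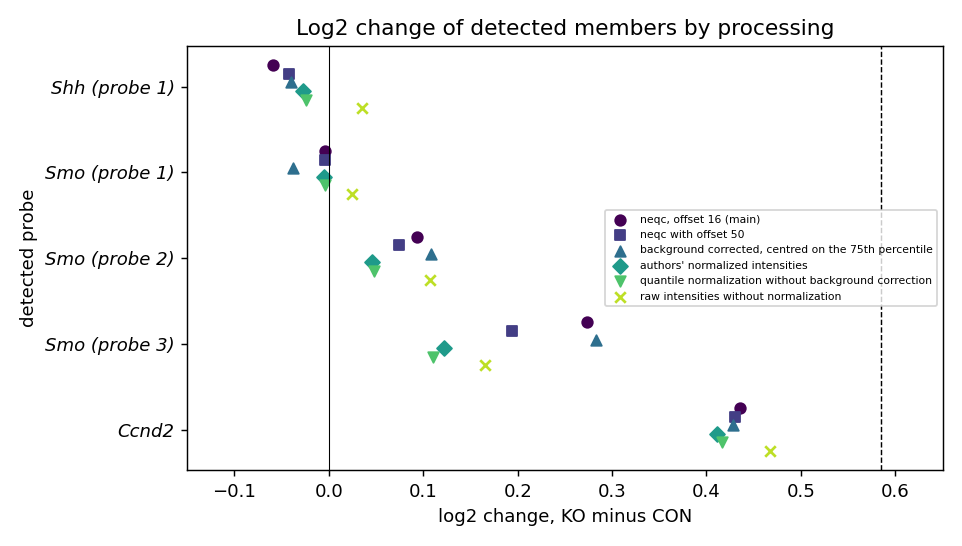
Log2 change (KO minus CON) of each detected hedgehog probe under 6 processing settings, with the dashed line at 1.5-fold. Ccnd2 stays between 0.41 and 0.47, the dimmest Smo probe ranges from 0.11 to 0.28, and Shh and the brightest Smo probe lie on either side of 0 depending on the setting.

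The other D-type cyclins had smaller differences than Ccnd2. The probes of Ccnd1 differed by 0.0019, 0.17 and 0.03 on the log2 scale, and the brightest read 3894.0 in CON and 4053.2 in KO. The 2 detected probes of Ccnd3 both differed by 0.19. Of 11 detected genes among the D-type cyclins and their partners at the start of the cell cycle, 8 had positive and 3 negative log2 changes, with a median of 0.09, while 50.2% of all detected genes were positive. Of these 11 only Ccne1, an E-type cyclin gene, passed the 1.5-fold rule, beside 5.38% of all detected genes. It was not detected in CON (156.5) and read 200.2 in KO, at least 1.74-fold higher on the background-corrected scale. In the authors' values its ratio was 1.29. The cell cycle inhibitor gene Cdkn1a had a log2 change of -0.27.

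Ccnd2 is also made by lymphocytes and other cells, and detected markers of immune cells had smaller log2 changes than Ccnd2. Cd3e, a T cell gene, read 609.8 in CON and 703.7 in KO (log2 change 0.19), and Cd207, of Langerhans cells, read 1053.2 and 1256.4 (0.24) with its brighter probe and 564.1 and 585.7 (0.01) with the other, while the leukocyte gene Ptprc was not detected. The signal of these 3 genes above background summed to 1384.3 in CON and 1673.9 in KO. Their part in the Ccnd2 difference was not tested.

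Of 14 listed genes that make and release the ligand 7 were detected, with a median log2 change of -0.03. Among these 0 passed 1.5-fold, which is near the 5.38% of all detected genes that did. Adam17, a protease that sheds membrane proteins, had the highest value at 0.31 (771.1 in CON and 945.1 in KO). Hhat, the acyltransferase that attaches palmitate to the ligand, had the lowest, at -0.30. It read 171.5 in CON and 167.5 in KO, where it was undetected. After background correction Hhat was 1.18-fold above the lowest detected KO signal, and in the authors' values the difference was 1.07-fold. The raw readings lay closer together than the background SD of either array (8.31 in CON and 9.27 in KO). Scube2, a secreted carrier of the ligand, had -0.30 as well, from 212.4 to 203.1. Disp1, the transporter that releases the ligand, was detected at 249.9 and 257.9 with a log2 change of -0.03. The other ligand genes, Ihh and Dhh, were not detected.

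Among 10 receptor and coreceptor genes only Smo and the glypican gene Gpc3 were detected. Gpc3, which encodes a cell surface proteoglycan that competes for the ligand, had a log2 change of 0.15, from 863.4 to 966.6. The coreceptor genes Cdon, Boc and Gas1 were at background. Cdon read 135.9 in CON and 142.1 in KO, Boc 143.7 and 133.4, and Gas1 136.4 and 147.5. Gpr161 and Lrp2 were undetected too.

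The cytoplasmic regulators were measured better, with 16 of 20 genes on the array detected. Their median log2 change was -0.03, with 6 positive and 10 negative values. Of the 16 only Cul1 was past 1.5-fold, beside 5.38% of all detected genes. Cul1 encodes a scaffold of the ubiquitin ligase that marks Gli proteins for processing. It read 244.4 in CON and 331.0 in KO, 1.6-fold higher, and 1.28-fold in the authors' values, under the rule. Its partner Btrc had a log2 change of -0.02, and Spop and Cul3, of another ligase that degrades Gli proteins, had 0.01 and 0.03. Kinase genes of Gli processing went both ways, at 0.48 for Gsk3b, 0.25 for Prkacb, -0.26 for Prkaca, -0.03 for Csnk1e and -0.02 for Csnk1d. Csnk1a1 was not detected.

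Primary cilium genes needed for the signal were also largely detected, at 16 of 22 on the array, and their median was 0.01 with 8 positive and 8 negative values. Only Cep164 among these 16 was past 1.5-fold, beside 5.38% of all detected genes. Cep164, a centriole protein gene required to build the cilium, was 1.57-fold higher in KO (214.8 to 278.9). Its second probe was not detected, and in the authors' values it was 1.25-fold, under the rule. The intraflagellar transport genes Ift88 and Ift172 had log2 changes of -0.01 and -0.09. Evc and Evc2, whose products act with Smo near the base of the cilium, had values of -0.23 and 0.12.

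Genes listed as hedgehog responses in skin and follicle had a median of 0.14 over 13 detected of 24, with 9 positive and 4 negative values and 0 past 1.5-fold. Over all detected genes 50.2% were positive and 5.38% past 1.5-fold, so a count of 0 among 13 is near that background. Besides Ccnd2 the highest values were 0.48 for Igf2, an insulin-like growth factor gene, and 0.40 for Sostdc1, a secreted inhibitor of bone morphogenetic protein and Wnt signals. The lowest was -0.34 for the Notch ligand gene Jag2. The genes that report hedgehog activity most directly, Gli1, Ptch1 and Hhip, were all among the 11 undetected ones. With undetected genes included the median over all 24 was -0.0040. Most of the detected genes in this list answer to other pathways as well.

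**Figure D4:**
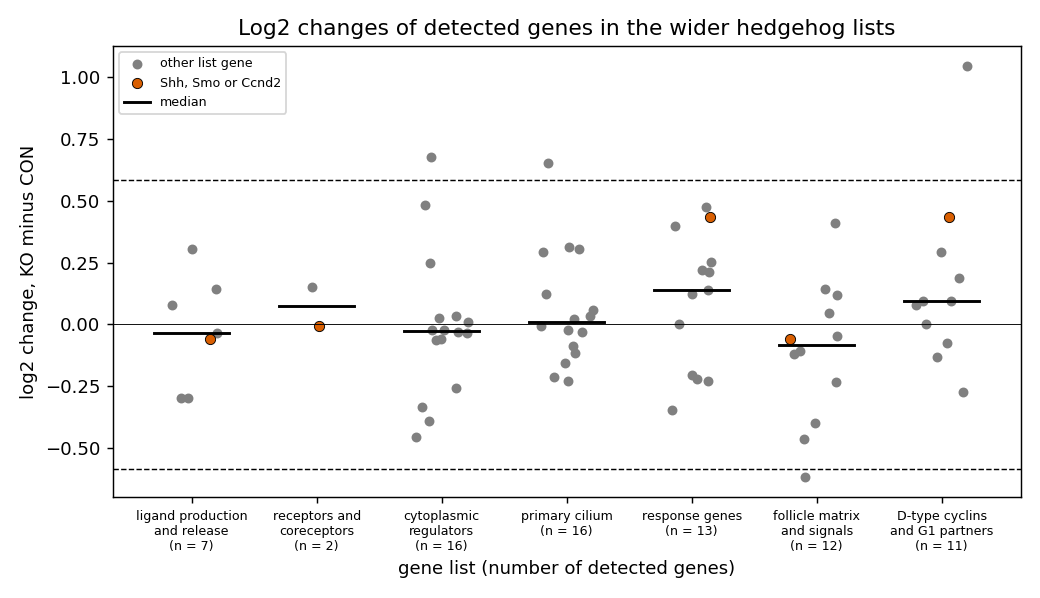
Log2 change (KO minus CON) of each detected gene in 7 gene lists, with Shh, Smo and Ccnd2 in orange, black bars at list medians and dashed lines at 1.5-fold. Medians lie between -0.08 and 0.14, and 4 genes lie past the dashed lines, namely Cul1, Cep164, Wnt10b and Ccne1.

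Shh was also in a list of hair follicle matrix and signal genes, whose tie to the cells that make Shh was not tested. Of these 16 genes, Shh among them, 12 were detected, with 4 positive and 8 negative log2 changes and a median of -0.08. Among these 12 Wnt10b alone was past 1.5-fold, beside 5.38% of all detected genes. Wnt10b, a Wnt ligand gene of the early follicle, was 1.53-fold lower in KO (228.5 to 198.5), and 1.21-fold in the authors' values. Msx2, a homeobox gene of the hair matrix, had -0.46, and Hoxc13, a regulator of hair keratins, had -0.04. The highest value in this list was 0.41, for the Wnt ligand gene Wnt10a (361.5 to 455.7), followed by 0.14 for the transcription factor gene Sox21. The hair keratin gene Krt35, from the hair matrix marker list, was 1.79-fold lower, from 952.4 to 604.1, and 1.59-fold in the authors' values. The 5 measured genes of the hair matrix marker list summed to 988.0 above background in CON and 599.4 in KO, of which Krt35 alone gave 814.5 and 462.2. Without Krt35 the sums were 173.5 and 137.2, and Foxn1 and Lef1 were undetected. The detected Shh probe differed by 1.04-fold, and the part of hair matrix cells in its value was not tested.

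Most markers of the labelled tissue were strong, with 5 of 6 basal and 4 of 4 measured upper layer genes detected. Krt14 and Krt5, of basal keratinocytes, read 30158.0 and 24782.8 in CON and 33165.4 and 22172.2 in KO, and Krt1, Krt10 and Lor of the upper layers read from 21901.0 to 33073.8. Ivl, another upper layer gene, had a log2 change of -0.38 (6967.8 to 5608.5), and the basal integrin gene Itga6 was undetected, at 159.7 and 161.9. Dermal cells, which receive the Shh signal from the follicle, contributed few markers. Of 8 dermal fibroblast genes 3 were detected, with Col1a1 at 202.3 in CON and 173.1 in KO, Dcn at 646.3 and 613.4, and Fbn1 at 165.2 and 175.7, while Col1a2 and Col3a1 were at background. The list summed to 652.3 above background in CON and 574.4 in KO. Of 6 dermal papilla genes only Alpl was detected, and Sox2 and Corin were at background. Of the other cell types, 0 of 3 endothelial and 0 of 2 nerve genes were detected, while the 4 melanocyte genes had log2 changes of -0.33 to -0.09. The 4 sebocyte genes summed to 1104.4 above background in CON and 837.6 in KO and went both ways, with Mc5r 2.17-fold higher (244.6 to 403.9), Awat2 and Plin2 1.87-fold and 1.58-fold lower, and Scd3 undetected in KO. In the authors' values the folds of Mc5r, Awat2 and Plin2 were 1.55, 1.57 and 1.39. The 3 skeletal muscle genes summed to 47.7 in CON, where only Myl1 was detected, and to 213.6 in KO, where all 3 were. Myl1 was 3.12-fold higher in KO (169.2 to 278.6), and Myh8 and Acta1 were at least 1.53-fold and 1.04-fold higher on the background-corrected scale. In the authors' values the folds of Myl1, Myh8 and Acta1 were 1.64, 1.35 and 1.15. The values for Ptch1, Gli1 and Hhip are those of epidermis separated from dermis, and the part of dermal cells in them was not tested.

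The Vdr probes did not give a check of the genotype. They read 1913.0, 1203.7 and 193.0 in CON and 2442.1, 1559.6 and 189.0 in KO, with log2 changes of 0.33, 0.37 and -0.23. The sources used here do not say which of them lies in the deleted part of the gene. Each direction above takes the labels of the pools as given.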

How the data were processed

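RNA was labelled with biotin and read on bead arrays, per the labels' protocols. Per the submitters' processing notes GenomeStudio 2011.1 was used. The authors deposited average bead intensity values on a linear scale, without normalization, beside each probe's detection p-value. All detection p-values were whole multiples of 1/798 within 0.01 of a step. The deposited normalized intensity table, which kept the background, was an alternative. The series matrix held the same values.

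The whole table was put through neqc (limma 3.58.1, R 4.3.3), which fits the background by detection p-value, adds 16, normalizes by quantiles and takes log2. The fitted background was 137.94 ± 8.31 (SD) in CON and 141.93 ± 9.27 in KO. Dim log2 changes depend on this model. In CON 11501 probes (44.8%) were detected and in KO 11422 (44.4%).

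Gene names were updated by Entrez identifier, accession, symbol or synonym through a RefSeq table of assembly GRCm38.p6, used for names only, and 321 probes kept the file's name. The probe with the highest mean log2 signal stood for its gene, and the gene was called detected where that probe was detected in at least 1 pool. Differences were called by size, at 1.5-fold. Calls and counts used the full log2 change, also for genes detected in 1 pool only. A fold given in the text as "at least" is instead a lower bound. It was taken against the lowest detected signal of the other array or the gene's own signal there, whichever was higher. The bound takes no account of noise and holds on the background-corrected scale only. The steps were tested on simulated data, with changes larger than that of any detected member. These were planted in probes brighter than those of Shh and the dimmest Smo probe, so small changes at low signal were not covered. Python 3.11.15, numpy 2.4.6, pandas 2.3.3 and matplotlib 3.10.9 were used.

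The members and lists were chosen with earlier results of these data known. Named in the text were all member probes, then in each hedgehog, follicle and cyclin list the genes past 1.5-fold or otherwise the 2 with the largest log2 change. Cell type marker lists were given by sums and counts with their defining genes. Other genes were named for their role, after their values were seen. One item is not reported here.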

Additional observations from a re-analysis of the deposited data

How the results depend on the processing

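No paired analysis was possible because there was 1 pool per genotype, and for the same reason no replicate could be left out. Every alternative was set against the neqc values, and a log2 value was taken as unmoved where it shifted by less than 0.18, the median difference between detected probes of 1 gene. By that measure all 5 detected member probes were unmoved under the 5 other processings. The limit exceeded the log2 changes of Shh (-0.06), the brightest Smo probe (-0.0046) and the middle one (0.09). For these a fall to 0 would not have counted as moved. The dimmest Smo probe went from 0.27 to as low as 0.11 and still counted as unmoved. The sign of Shh and of the brightest Smo probe turned in raw intensities (0.03 and 0.02). The median of the member genes ranged from -0.05 to 0.12 over 9 alternatives. The value of -0.05 came with a detection limit of 0.05, over 5 member genes, and without a detection filter, over 8. Over the 3 detected members the lowest value was -0.04. The counts of all genes past 1.5-fold moved with the processing. From 275 higher and 202 lower they went to 48 and 15 in the authors' values (76.2% higher, against 57.7%), 50 and 23 without background correction (68.5%), 69 and 13 in raw intensities (84.1%), and 102 and 57 with an offset of 50 (64.2%). Over genes detected in both pools 185 were higher and 114 lower (61.9%). In the authors' values, without background correction and in raw intensities, none of Cul1, Cep164, Wnt10b and Ccne1 passed 1.5-fold. With an offset of 50 Ccne1 alone did. The cause was not tested, and signal over background limits every gene near the detection limit.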
